A study of Arabidopsis thaliana with 4 samples.

Results

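The transcripts of a pair of AP2-type transcription factor genes, the ERF/AP2 gene AT1G22810 and the floral repressor gene SMZ, were followed in Arabidopsis thaliana shoot apices. They are 2 of the 13356 genes that the array's annotation pairs with a probe set of their own, and each was read by 1 probe set (SMZ has the locus code AT3G54990). Both were picked because their values differed between the groups described here, so those differences are given as a description, with no test. All plants were Ws-0 seedlings with the 35S:LEC1-GR transgene, which is driven by the constitutive 35S promoter. The seedlings were 8 days old and spent 1 h in liquid GM medium, with 30 µM dexamethasone in one group (2 arrays) and with no dexamethasone in the other (2 arrays). Apices were dissected after the incubation. Dexamethasone-treated plants without the transgene were not among the samples, so effects of the steroid and of the fusion protein cannot be told apart.

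AP2/ERF proteins bind DNA through the AP2 domain and form a large plant family of transcription factors. ERF and DREB proteins carry a lone AP2 domain and are known for roles in responses to ethylene, cold, drought and wounding. Proteins of the AP2 subfamily, many of which carry a pair of them, are known for roles in meristems, flowers and embryos. A pair is not a trait of every member, and the AP2 domains of SMZ and SNZ were not examined here. AT1G22810 is placed here with the genes called ERF group II, in the DREB branch. SMZ (SCHLAFMUTZE) and its close relative SNZ (SCHNARCHZAPFEN) belong to the AP2 subfamily with AP2 and the TOE genes. They delay flowering, in part by repressing the florigen gene FT, and their transcripts are targets of the microRNA miR172. LEC1 is a subunit of the NF-Y complex that controls embryo development, and the glucocorticoid receptor part of the fusion keeps it inactive until dexamethasone is added.

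Levels are the log2 RMA values deposited per probe set, with medians between 6.56 and 6.61 in the 4 arrays. The control level of an array is the highest value among its 27 probe sets for Bacillus transcripts, and it lay between 4.68 and 4.86. No probe set was matched to LEC1 alone, so the transgene was not checked here. In limma with Benjamini-Hochberg adjustment over 22746 probe sets, dexamethasone was the higher group for 339 of them (1.49%) and the lower for 200 (0.879%), together 2.37%. Of the tissue markers, CLV3, of the shoot stem cell niche, was the 1 of 5 meristem markers identified, and in 3 of 4 arrays it did not exceed the control level. LHCB4.1, of the leaf antenna, stood between 13.28 and 13.41. The vascular list had no marker identified. In bulk tissue, fewer cells of a type and less RNA per cell cannot be told apart.

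AT1G22810 was low in both untreated arrays and high in both dexamethasone arrays. Its level was 6.14 and 5.76 in untreated replicates 1 and 2, and 9.10 and 9.51 in dexamethasone replicates 1 and 2. The groups did not overlap, and all 4 arrays lay at least 0.89 above their control level. Group means were 5.95 ± 0.27 untreated and 9.31 ± 0.29 with dexamethasone (SD, n = 2 arrays each). The difference was 3.36 ± 0.21 (log2, ± limma SE), which is 10.3-fold. Setting single arrays against each other, the closest pair of arrays from the 2 groups differed 7.80-fold and the farthest pair 13.5-fold. Among the 22746 probe sets this was the 5th largest positive difference, and among the 13356 genes it was the 2nd largest, after HYH, which had a dim array.

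The replicates of AT1G22810 were further apart than those of most probe sets, yet close next to the group difference. The gap was 0.38 between the untreated arrays and 0.41 between the dexamethasone arrays, where the medians over all probe sets were 0.18 and 0.15. The group difference was 8.24 times the larger of these 2 gaps. Leaving out 1 array at a time gave differences from 3.15 to 3.56. Replicate 2 was the lower array among the untreated and the higher array among the treated, so the difference was 2.96 within replicate number 1 and 3.75 within number 2.

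SMZ showed the same direction with a smaller difference. Its level was 6.59 and 6.29 in untreated replicates 1 and 2, and 7.42 and 7.52 in dexamethasone replicates 1 and 2. The groups did not overlap, and every array lay at least 1.42 above its control level. Group means were 6.44 ± 0.21 untreated and 7.47 ± 0.07 with dexamethasone (SD, n = 2 arrays each). The difference was 1.03 ± 0.15 (log2, ± limma SE), which is 2.05-fold. A pair of arrays from the 2 groups differed 1.79-fold at the least and 2.34-fold at the most. A positive difference of this size or larger was seen in 642 probe sets, SMZ included, 2.82% of those tested.

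The dexamethasone arrays of SMZ were close, with a gap of 0.09, while the untreated arrays were 0.30 apart. The group difference was 3.47 times the larger gap. It was 0.84 within replicate number 1 and 1.23 within number 2, and leaving out any single array kept it between 0.88 and 1.18. The 2 genes shared the order of their arrays, from untreated replicate 2 at the bottom through untreated replicate 1 and dexamethasone replicate 1 to dexamethasone replicate 2. The difference of AT1G22810 exceeded that of SMZ by 2.33 on the log2 scale, a 5.01-fold larger change. Both genes had groups that do not overlap, which held for 47.2% of all probe sets (22.3% with dexamethasone higher and 24.8% with dexamethasone lower). As both were chosen on this contrast, nothing is read from that share.

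**Figure D1:**
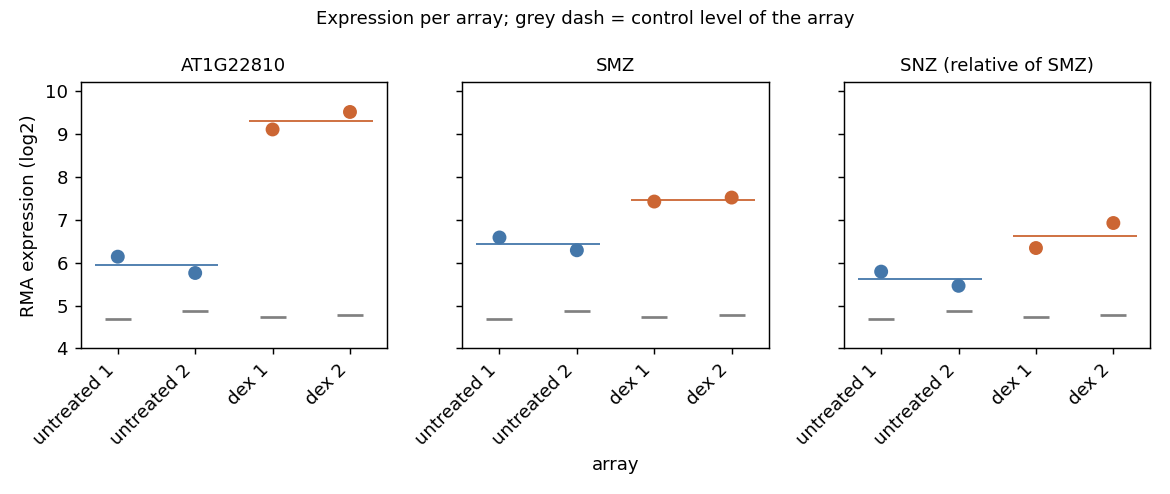
RMA expression (log2, vertical axis) of AT1G22810, SMZ and the SMZ relative SNZ in the 4 arrays (horizontal axis). Points are arrays (blue untreated, orange dexamethasone), coloured lines are group means and grey dashes the control level of each array. AT1G22810 moves from about 5.95 to 9.31, and the points of the groups do not overlap in any of the 3 panels. Levels of different probe sets are not comparable with each other.

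SNZ, the closest relative of SMZ that was identified, had a difference of similar size but more spread. Its level was 5.79 and 5.46 in the untreated arrays and 6.34 and 6.92 in the dexamethasone arrays, so the groups did not overlap. The difference was 1.01 ± 0.24 (log2, ± limma SE), and it did not pass the limma test (adjusted p = 0.118). Its dexamethasone arrays were much further apart than those of SMZ. The difference was 0.72 without dexamethasone replicate 2, the higher array, and larger than 1.01 without replicate 1. Over the alternatives its limma adjusted p ranged from 0.0858 to 0.42. AP2, TOE1, TOE2 and TOE3, the other floral AP2-type genes of this branch, were not matched to a probe set of their own and were not analysed here.

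The other AP2 subfamily genes did not show a shared direction. Of 18 listed genes, 4 were identified besides SMZ, and limma called 0 of them, with 2 at an unadjusted p below 0.05 (SNZ and AT2G41710), against 2.37% and 17.2% of all probe sets. AT2G41710 went the other way, from 7.93 and 7.82 in the untreated arrays to 7.08 and 7.15 with dexamethasone. Its groups did not overlap, and its difference of -0.76 ± 0.13 fell just short of the threshold (limma adjusted p = 0.0575). When the dimmest 50% of probe sets were left out, so that fewer were tested, AT2G41710 passed (limma adjusted p = 0.0436), and over all alternatives its adjusted p reached up to 0.308. BBM, an embryo regulator, and AT1G72570 exceeded the control level on none of the 4 arrays, with differences of -0.04 and -0.0019.

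The genes listed with AT1G22810 as ERF group II, placed there by hand, stood far from its difference of 3.36. AT1G22810 was chosen for that difference, so nothing is read from the distance. Of 16 listed genes, 6 were identified besides AT1G22810, and their median difference was -0.11, against -0.02 over all probe sets. In limma 0 of the 6 were called, against 2.37% of all probe sets, and 2 had an unadjusted p below 0.05, against 17.2%. AT1G44830 stood highest, with levels of 6.78 and 6.50 in the untreated arrays and 7.49 and 6.99 with dexamethasone. Its difference of 0.60 ± 0.22 did not pass (limma adjusted p = 0.254), and it was 0.35 without dexamethasone replicate 1. AT4G31060 stood on the other side of 0, at 5.53 and 5.91 untreated and 5.15 and 5.21 with dexamethasone, a difference of -0.54 ± 0.17 (limma adjusted p = 0.201).

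ORA47, an activator of jasmonate synthesis in ERF group II, depended on 1 array. Its level was 6.73 and 5.21 untreated and 4.96 and 5.35 with dexamethasone. The groups overlapped, and the difference of -0.82 ± 0.51 did not pass the test (limma adjusted p = 0.519). Without untreated replicate 1 the difference was -0.05, and without untreated replicate 2 it was -1.58 (limma adjusted p = 0.0446). The remaining 3 genes, AT1G77640, AT1G19210 and AT1G71450, had differences of -0.36, 0.24 and 0.14, none past the test, and AT1G19210 exceeded the control level in only 2 arrays.

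Across all 97 listed AP2/ERF genes, 19 were identified besides AT1G22810 and SMZ, and their median difference was 0.04. In limma 0 of the 19 were called, against 2.37% of all probe sets, and 5 had an unadjusted p below 0.05, against 17.2%. In the order of differences AT1G22810 came first, 1.87 above the gene next to it. That gene was the DREB-type gene tny (TINY), which is known to restrain growth when overexpressed. It read 7.24 and 6.69 in the untreated arrays and 8.01 and 8.89 with dexamethasone, a difference of 1.49 ± 0.35 that did not pass the test (limma adjusted p = 0.112). SMZ was number 3 in that order and SNZ number 4. AT1G22810 and SMZ were chosen on this contrast, so nothing is read from their places. The order leaves out the genes added later, of which AT2G44940 (1.54) and AT5G52020 (1.23) stood above SMZ. LEP, a leaf shape gene, stood at 0.30, SHN3, a cuticle gene, at 0.07 and AT5G61890 at 0.03. HRD, TINY2 and PUCHI exceeded the control level on none of the 4 arrays, with differences of 0.24, 0.04 and -0.01. AT1G01250 (0.20) and AT1G33760 (-0.0086) completed the DREB and ERF genes placed by hand in other groups, and no RAV gene was identified.

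A further 44 AP2/ERF genes, most of which have no symbol beyond a locus code, were added once it was seen how few listed genes could be identified. Of these, 26 were identified, and limma called 2 higher and 0 lower, against 1.49% and 0.879% of all probe sets. AT2G44940 rose from 6.15 and 6.35 to 7.59 and 7.98, a difference of 1.54 ± 0.18 (limma adjusted p = 0.0343). AT5G52020 rose from 5.87 and 6.24 to 7.32 and 7.25, a difference of 1.23 ± 0.17 (limma adjusted p = 0.0414). Neither reached the difference of AT1G22810, and both exceeded that of SMZ. Leaving out either dexamethasone array ended both calls (limma adjusted p from 0.206 to 0.264), and limma then called 0 probe sets in all.

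Of all 26 added genes identified, 6 had an unadjusted p below 0.05, against 17.2% of all probe sets, and 4 of these were not called. AT4G32800 stood at 1.02 ± 0.33, AT5G07580 at 0.78 ± 0.28, AT2G33710 at 0.73 ± 0.15 and AT1G63040 at 0.38 ± 0.14 (limma adjusted p from 0.0887 to 0.247). Without untreated replicate 1 the differences of AT4G32800 and AT5G07580 were 1.50 and 1.18, and both passed the test. With untreated replicate 1 kept and replicate 2 left out they were 0.53 and 0.38. Of the 45 AP2/ERF genes besides AT1G22810 and SMZ, 11 exceeded the control level on none of the 4 arrays. The median difference of the 45 was 0.07, against -0.02 over all probe sets. Of the 45, 29 stood above 0, a larger share than the 46.9% of all probe sets, and this was not tested.

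**Figure D2:**
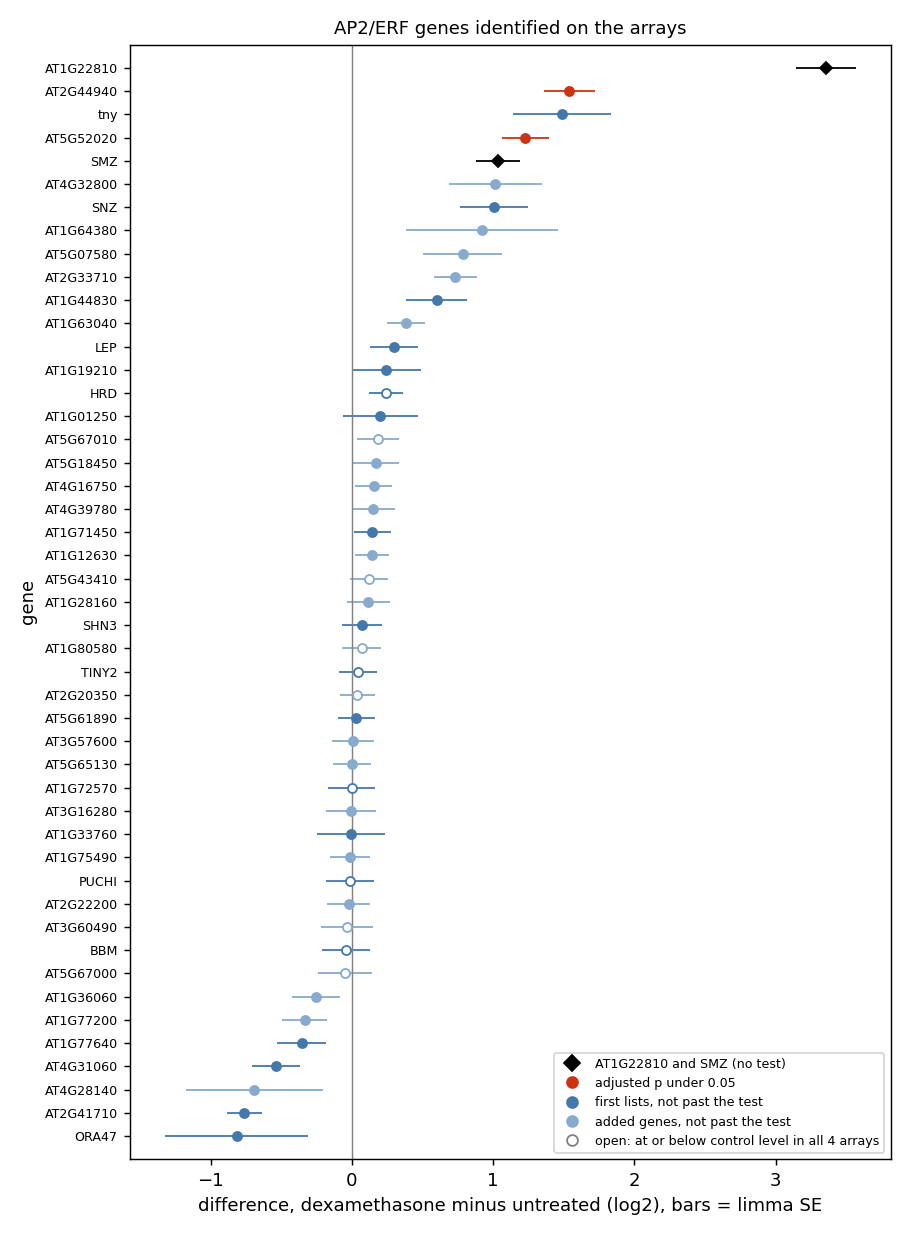
Difference between dexamethasone and untreated arrays (log2, horizontal axis, bars are limma SEs) for AT1G22810, SMZ and the 45 other AP2/ERF genes identified (vertical axis, ordered by difference). Black diamonds are AT1G22810 and SMZ, red points passed the limma test, and open points exceeded the control level on none of the 4 arrays. AT1G22810 stands alone at 3.36, while SMZ at 1.03 stands among AT2G44940, tny, AT5G52020, AT4G32800 and SNZ. Both were chosen on this contrast, so nothing is read from their places.

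Few of the flowering time genes around SMZ could be read. Of 45 listed genes, 6 were identified, and FT, SOC1, FLC, CO and the SPL genes were not analysed here. Limma called 0 of the 6, with 0 at an unadjusted p below 0.05, where all probe sets had 2.37% and 17.2%. Their median difference was -0.0036. GI, a clock and photoperiod gene, read 9.10 and 9.18 untreated and 8.79 and 8.91 with dexamethasone, a difference of -0.29 ± 0.13 (limma adjusted p = 0.351). FD, the partner of FT at the shoot apex, stood at 0.42 ± 0.19 (limma adjusted p = 0.362) and exceeded the control level in 1 array. AGL18, a repressor of flowering, stood at 0.28, AGL24 at 0.11, LD at -0.22 and ATC at -0.12. The sign of ATC and LD turned without untreated replicate 2 and untreated replicate 1, respectively, and also for ATC without dexamethasone replicate 1. AGL24 stood at -0.0048 without dexamethasone replicate 2.

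Genes that respond to touch and wounding were read because apices are handled when they are dissected. Those identified differed between the untreated arrays, and the reason was not tested. Of 17 listed genes, 3 were identified, and limma called 0 of them, with 1 at an unadjusted p below 0.05 (WRKY53), where all probe sets had 2.37% and 17.2%. The zinc finger gene STZ read 10.90 and 9.10 in untreated replicates 1 and 2, and 11.21 and 10.77 with dexamethasone. The calmodulin-like gene CML38 read 9.94 and 8.20 untreated, and 10.36 and 9.88 with dexamethasone. For both, untreated replicate 1 lay close to the dexamethasone arrays, and the groups overlapped. The defence factor gene WRKY53 read 8.25 and 7.82 untreated, and 8.76 and 8.49 with dexamethasone, and its groups did not overlap. The summed linear level of the 3 genes was 3199 and 1069 in the untreated arrays, and 4112 and 3053 in the dexamethasone arrays.

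AT1G22810 and SMZ were also higher in untreated replicate 1 than in replicate 2, by less. The untreated arrays of AT1G22810 were 0.38 and those of SMZ 0.30 apart, where those of STZ were 1.80, those of CML38 1.74 and those of WRKY53 0.43 apart. Without untreated replicate 2, the array low in the touch genes, the difference was 3.17 for AT1G22810, 0.88 for SMZ, 0.09 for STZ, 0.18 for CML38 and 0.37 for WRKY53. Without untreated replicate 1 the values were 3.55 for AT1G22810, 1.18 for SMZ, 1.89 for STZ, 1.92 for CML38 and 0.80 for WRKY53. Root genes split the same arrays the other way. EXPA7 and EXPA18, the 2 of 6 root markers identified, had a summed linear level of 61.5 and 163.9 in the untreated arrays and of 55.6 and 68.2 with dexamethasone. Both were dim outside untreated replicate 2. EXPA7 read 5.03 and 6.25 untreated and 4.59 and 4.97 with dexamethasone, and it did not exceed the control level in dexamethasone replicate 1. EXPA18 read 4.86 and 6.46 untreated and 4.98 and 5.20 with dexamethasone. Of 5 epidermal and stomatal markers 3 were identified, with differences of -0.31 for FMA (FAMA), -0.04 for MUTE and 0.29 for TRY. MUTE exceeded the control level in 1 array and TRY in none. The part of these marker genes in the differences of AT1G22810 and SMZ was not tested.

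The genes with the pattern most like each were taken by the root mean square distance between levels centred on each gene's own mean over the 4 arrays, among 13354 genes. For AT1G22810 the 6 most alike were AT1G65490 (distance 0.37), the light signalling gene HYH (0.39), AT2G21510 (0.46), AT3G44450 (0.47), AT1G51820 (0.47) and the immune factor gene WRKY22 (0.54). Within 0.50 of it lay 5 genes. HYH read 5.16 and 4.03 in the untreated arrays and 8.42 and 8.21 with dexamethasone, a difference of 3.72. Its untreated replicate 2 did not exceed the control level, and with that array set to the control level the difference was 3.30, so its order against AT1G22810 is not settled. AT1G51820 did not exceed the control level in either untreated array, and its difference was at least 2.22, taken from the control level. The other 4 had differences from 2.43 to 2.82. AT3G44450 kept the order of the arrays and nearly their relative spacing (r = 0.99996 over 4 arrays) at a smaller scale, with levels of 5.59 and 5.29 untreated and 7.73 and 8.01 with dexamethasone. A correlation over 4 arrays in 2 groups mostly reflects the groups, and AT1G22810 and SMZ had r = 0.992 with each other.

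For SMZ a tighter limit of distance was used than for AT1G22810. Few genes have a difference as large as that of AT1G22810, so the numbers of near genes are not comparable between them. Within a distance of 0.10 lay 36 genes, the nearest being AT1G79160 (0.015), AT3G06760 (0.024), AT2G28510 (0.037), the glucosinolate transporter gene GTR1 (0.042), AT5G24810 (0.043) and AT3G50900 (0.047). AT1G79160 read 8.60 and 8.32 in the untreated arrays and 9.46 and 9.51 with dexamethasone. Its arrays stood in the same order as those of SMZ and nearly at the same spacing. The differences of the 6 genes ranged from 0.95 to 1.11. These genes were picked for their likeness, which includes the difference between the groups, so no test is given for them.

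**Figure D3:**
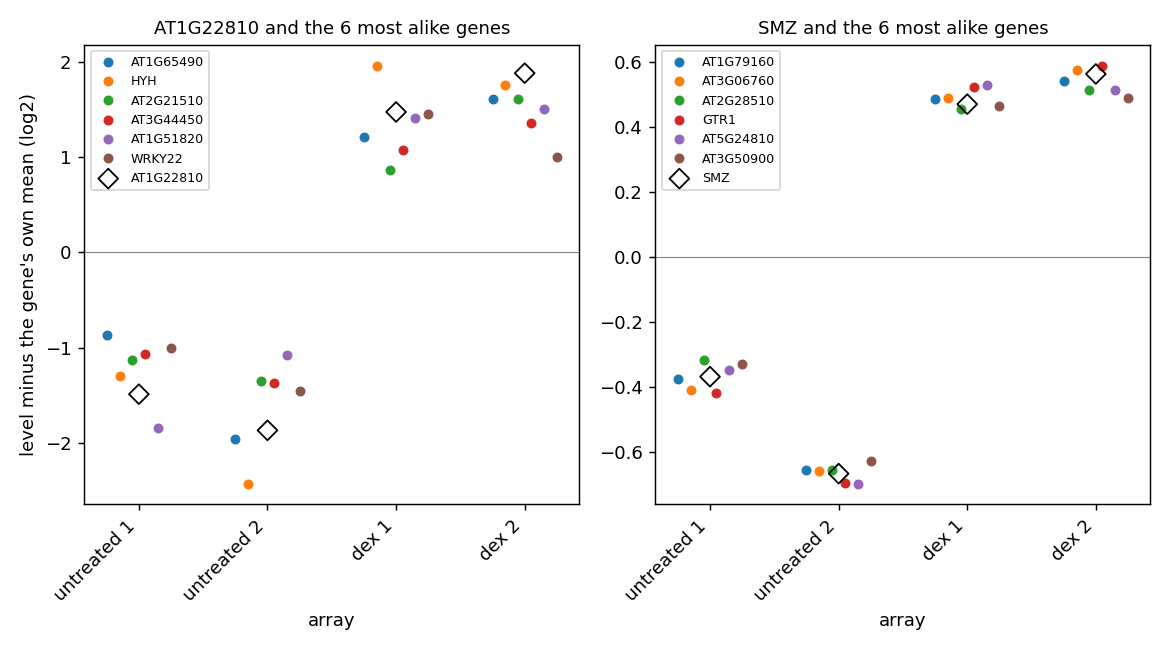
Level minus the gene's own mean over the 4 arrays (log2, vertical axis) in each array (horizontal axis) for AT1G22810 (left, open diamonds) and SMZ (right, open diamonds), each with its 6 most alike genes as coloured points, set side by side within an array for legibility. The vertical scales differ. The genes nearest to SMZ overlie it, with distances from 0.015 to 0.047. Those nearest to AT1G22810 scatter around it, with distances from 0.37 to 0.54. Few genes have a difference as large as that of AT1G22810, so nothing is read from this contrast.

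The genes next to AT1G22810 and SMZ on the chromosome were read as a further set. This set was added after the other results were known and was chosen by position alone, from the gene order of the TAIR10.1 assembly. AT1G22810 and SMZ were chosen for their own differences, so most genes have smaller ones and nothing is read from that. Of the 8 protein-coding genes nearest to AT1G22810, 4 on each side, 7 were identified, with differences from -0.29 (GI) to 0.50 (AT1G22850) and a median of 0.06. Limma called 0 of the 7, with 1 at an unadjusted p below 0.05, against 2.37% and 17.2% of all probe sets. AT1G22800 and AT1G22830, its immediate neighbours, stood at 0.11 and 0.31. AT1G22800 read 6.72 in both untreated arrays and 6.81 and 6.84 with dexamethasone. Of the 8 genes around SMZ, 4 were identified, with differences from -0.26 to 0.17. Limma called 0 of these 4, with 0 at an unadjusted p below 0.05, against the same shares of all probe sets. AT3G54980, next to SMZ, stood at -0.06.

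**Figure D4:**
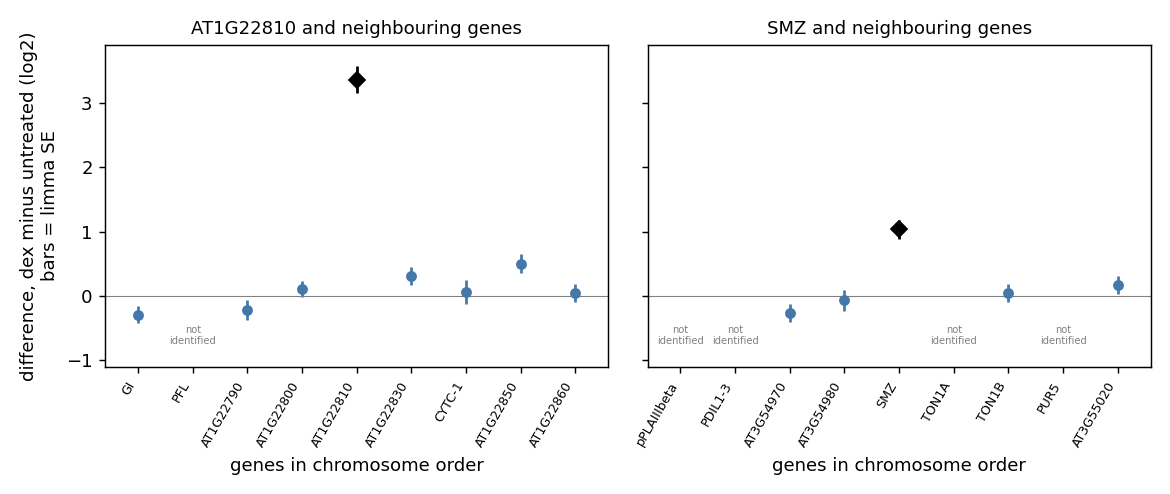
Difference between dexamethasone and untreated arrays (log2, vertical axis, bars are limma SEs) for AT1G22810 (left), SMZ (right) and the 4 protein-coding genes on each side in chromosome order (horizontal axis, not to scale). Black diamonds are AT1G22810 at 3.36 and SMZ at 1.03, and blue points their identified neighbours, which lie between -0.29 and 0.50.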

How the data were processed

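The values that the authors deposited are log2 levels of each probe set, computed by RMA in the affy package per the submitters' processing notes, which name no version. RMA brings arrays to a common distribution, so a shift shared by all transcripts is not visible. There is no read depth, and precision is limited by having 2 arrays in a group. Groups and replicate numbers came from the sample titles, and the design text calls the replicates biological.

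Of 22810 probe sets, 64 controls were left out. Probe sets were named through the platform annotation and the RefSeq gene table: 13513 matched 1 gene, 503 several and 8730 none here. Where a gene had several probe sets, the brightest on average stood for it. The comparison used lmFit and eBayes of limma 3.58.1 under R 4.3.3 (two-sided, no block), with Benjamini-Hochberg adjustment over 22746 probe sets and a threshold of 0.05. The script was also tested on simulated data, drawn independently with the means of these arrays and the spread that limma estimated. That checks the script, and nothing about the calls in these arrays is read from it. With 2 arrays against 2, an exact permutation test of a single gene cannot go below p = 0.333, so limma's pooled spread was used.

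AT1G22810 and SMZ, and the gene lists, were chosen with earlier results of these data known. Family membership of genes with only a locus code was assigned by hand. The rule for named genes took the called members of each list (with none called, the 2 with the smallest p), the ERF group II genes, the floral relatives of SMZ, the 6 genes most alike to each gene and the 2 family genes next above and below in difference. Other list genes, the 44 added AP2/ERF genes and the chromosome neighbours fall outside it and were named after their values were seen. Planned steps on protein and promoter sequences were not run, and no coordinates are printed, as no build is named for the values. Deviations from the group means of same-numbered arrays had a correlation of 0.227 over probe sets, and with 2 pairs the numbers were not taken to pair the samples. Alternatives were a replicate block, 2 scalings, dim probe sets left out, trend and robust eBayes, a stricter threshold and each array left out.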

Additional observations from a re-analysis of the deposited data

How the results depend on the processing

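The differences of AT1G22810 (3.36) and SMZ (1.03) moved by less than the spread between replicates under median centring and a second quantile normalization. A replicate block (3.36 and 1.03) leaves them as they are by construction, and so does setting dim arrays to the control level, as neither gene has one. Setting dim arrays to the control level, added later, moved HYH from 3.72 to 3.30. Leaving out 1 array gave 3.15 to 3.56 for AT1G22810 and 0.88 to 1.18 for SMZ. Counts over all probe sets moved more. A replicate block in limma gave 559 higher and 300 lower calls. Only probe sets that match 1 gene, a setting added later in which fewer were tested, gave 172 and 101, and an adjusted p of 0.01 gave 0 and 0 (3902 at an unadjusted p below 0.05). Fits without 1 array gave from 0 to 734 higher and from 0 to 458 lower calls, taking the spread of the lone array to be that of the complete group. They gave 0 without either dexamethasone array (2672 and 2448 probe sets at an unadjusted p below 0.05 without replicate 1 and 2). The AP2/ERF, flowering time and touch lists had 0 calls, with few exceptions. The tissue marker lists were not counted in these settings. Without untreated replicate 1 the root markers EXPA7 and EXPA18 stood at -1.47 and -1.37, against -0.86 and -0.57 with all arrays. Without the dimmest 50% of probe sets, AT2G41710 made 1 lower call among the AP2/ERF genes, the AP2 subfamily and the wider list of 45 genes. Leaving out 1 array gave 0 to 1 lower calls among the AP2/ERF genes and ERF group II (ORA47, without untreated replicate 2) and 0 to 2 higher calls among touch and wound genes. No such setting called an AP2 subfamily or flowering time gene (0 to 0 in both directions). The wider list had 2 higher calls, 0 at an adjusted p of 0.01, and 0 to 5 higher and 0 to 2 lower when 1 array was left out. Of the 71 other list genes and chromosome neighbours (the most alike genes were not counted), 39 kept their direction under every alternative run. The other 32 changed it in at least 1, and none of them was called in the main fit with all arrays. What causes these changes was not tested. Signal near the control level limits the dim genes.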
